A study of Macaca mulatta with 12 samples.

Results

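The genes described here belong to epithelial cell-cell adhesion: CDH1, CDH3, PVRL4, EPCAM, MPZL2, CLDN1, CLDN4, DSG3, DSC3 and PERP. They are 10 of the 16745 genes in the deposited table, matched by symbol, and all 10 were in it. They were chosen by their levels in these data. Which values were used is not stated; they were taken to be the lower levels in engineered heart tissue than in monolayer culture under normoxia, and that comparison is given as a description without a test. The RNA came from cultures labelled as cardiomyocytes derived from induced pluripotent stem cells of the rhesus macaque. The 4 groups, of 3 libraries each, were engineered heart tissue (EHT, the 3D culture) after hypoxia, monolayer (2D) culture after hypoxia, EHT in normoxia and monolayer culture in normoxia. All 4 groups shared the medium, RPMI with B27 containing insulin. Hypoxia meant 24 hours inside an anaerobic pouch and a further 24 hours once the medium had been renewed; the labels do not say when RNA was taken, nor whether normoxia cultures had the same change of medium. The labels do not describe how the EHTs were built, which stem cell line was used or whether the 3 libraries of a group came from separate cultures, so p-values measure the spread between libraries, which may be technical.

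Epithelial cells hold to each other through 3 kinds of junction. At adherens junctions, classical cadherins bind their like on the next cell and are tied to actin through catenins, with nectins as a second adhesion system. At tight junctions, claudins form the strands that seal the space between cells. At desmosomes, the desmosomal cadherins (desmogleins and desmocollins) are tied to keratin filaments through plakoglobin, plakophilins and desmoplakin. Heart muscle cells join by N-cadherin (CDH2) and by the desmosomal cadherins DSG2 and DSC2, and the 10 genes described here are better known from epithelia, CDH1 and EPCAM also from pluripotent stem cells.

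The values are normalised CPM (reads of a gene per 1000000 reads of a library), from whole reads recovered from the deposited values and scaled by median-of-ratios factors; no gene lengths were used, so levels are compared across libraries and not between genes. The libraries held 4154346 to 11298841 reads, and a single read was worth 0.0698 to 0.256 normalised CPM. A value of 0 therefore allows up to 0.209 to 0.768 normalised CPM (3 reads, counting error only). Scaling matters for the counts of changed genes: the deposited scaling moved the median log2 difference of all genes, relative to the scaling used here, by -0.59 for EHT against monolayer in normoxia and -0.40 for hypoxia in monolayer, and scaling by library totals moved these by -0.29 and -0.62. For EHT against monolayer in hypoxia the shifts were 0.01 and 0.13, and for hypoxia in EHT 0.17 and -0.19. Library 3 of EHT hypoxia stood apart from its group, with the fewest genes detected of all 12 libraries (11784) and cardiomyocyte markers summing to 16.6 normalised CPM, against 452 and 617 in libraries 1 and 2. Library 3 of EHT normoxia was also low, with 12077 genes detected and a sum of 5.75, against 136 and 66.2 in libraries 1 and 2. In monolayer normoxia the sum was 295 in library 3, against 1337 and 1831. Results of the adhesion genes that rest on library 3 of EHT hypoxia are given with and without it. Those of the markers and of the other junction genes are given only with it.

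The label cardiomyocyte was checked against 9 markers, of which 7 were in the table and MYH7 and TTN were not analysed here. Their summed level was 16.6 to 617 normalised CPM in EHT hypoxia, 4558 to 4831 in monolayer hypoxia, 5.75 to 136 in EHT normoxia and 295 to 1831 in monolayer normoxia. Fibroblast markers (6 of 8 in the table) summed to 57708 to 71708 normalised CPM in EHT hypoxia, 52163 to 58523 in monolayer hypoxia, 45658 to 62672 in EHT normoxia and 26083 to 54400 in monolayer normoxia. By group mean, cardiomyocyte markers were lowest in normoxic EHT and highest in hypoxic monolayers, whereas the adhesion genes were highest in normoxic monolayers. The label epithelial was checked against 13 markers, 10 of them in the table (KRT8, KRT14 and KRT19 were not analysed here). Their sum was 8.71 to 179 normalised CPM in EHT hypoxia, 124 to 159 in monolayer hypoxia, 4.83 to 13.1 in EHT normoxia and 1312 to 7103 in monolayer normoxia. Of the pluripotency markers, 5 of 7 were in the table, and NANOG and DPPA4 were not analysed here. POU5F1 and LIN28A had 0 reads in all 12 libraries. The list summed to 0 to 5.29 normalised CPM in EHT hypoxia, 0.858 to 2.55 in monolayer hypoxia, 0 to 0.230 in EHT normoxia and 8.30 to 17.5 in monolayer normoxia. SOX2 had 4.19, 16.7 and 9.12 normalised CPM in libraries 1 to 3 of monolayer normoxia. In bulk RNA, fewer cells of a type and less RNA per cell cannot be told apart.

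CDH1 encodes E-cadherin, the classical cadherin of most epithelia. It had 2.26, 7.51 and 3.58 normalised CPM in libraries 1 to 3 of EHT hypoxia and 7.83, 6.99 and 3.998 in monolayer hypoxia. In EHT normoxia it had 2.61, 0.346 and 0.115, and in monolayer normoxia 166, 79.9 and 56.5. The 3 normoxic monolayers were above all the others, and the hypoxic groups of the 2 cultures overlapped.

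CDH3 encodes P-cadherin, a classical cadherin of basal epithelial layers. It had 13.2, 9.73 and 0.512 normalised CPM in EHT hypoxia and 42.9, 41.9 and 48.1 in monolayer hypoxia. Its values were 3.08, 2.42 and 12.8 in EHT normoxia and 524, 322 and 329 in monolayer normoxia. Both monolayer groups stood clear of both EHT groups, and the EHT groups overlapped each other. In the macaque RefSeq annotation (T2T-MMU8v2.0) CDH3 and CDH1 are neighbours, with no gene listed between them.

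PVRL4, now called NECTIN4, encodes nectin-4, a nectin that binds nectin-1 on the next cell. It had 10.1, 3.92 and 0 normalised CPM in EHT hypoxia and 1.87, 1.10 and 0.414 in monolayer hypoxia. In EHT normoxia it had 0, 0.346 and 0, which were 3 reads in all, and in monolayer normoxia 98.5, 54.5 and 51.7. The hypoxic EHT libraries lay on both sides of the hypoxic monolayers.

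EPCAM is a surface glycoprotein of simple epithelia and carcinomas that binds its like on other cells. It had 1.32, 0.512 and 4.61 normalised CPM in EHT hypoxia and 12.9, 5.40 and 5.93 in monolayer hypoxia. Normoxic EHT had 0, 0.115 and 0.921 of it, and normoxic monolayers 117, 109 and 82.5. The monolayer groups did not overlap the EHT groups at either oxygen condition.

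MPZL2, also called epithelial V-like antigen, is an adhesion protein of the immunoglobulin family first described in thymic epithelium. It had 12.8, 10.2 and 0 normalised CPM in EHT hypoxia and 4.93, 1.47 and 2.34 in monolayer hypoxia. In EHT normoxia it had 0.475, 0 and 0.115, again 3 reads in all, and in monolayer normoxia 146, 89.4 and 81.7. As for PVRL4, libraries 1 and 2 of EHT hypoxia were above the hypoxic monolayers and library 3 had no read.

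CLDN1 is a claudin of the epidermal barrier. It had 15.2, 14.5 and 19.5 normalised CPM in EHT hypoxia and 4.93, 7.11 and 10.6 in monolayer hypoxia. Under normoxia it had 7.12, 9.44 and 7.60 in EHT and 28.8, 35.9 and 30.9 in monolayer. The normoxic monolayers were highest, hypoxic EHT came next without overlap, and normoxic EHT and hypoxic monolayers overlapped.

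CLDN4 is a claudin of tight, low-leak epithelia. It had 7.14, 15.0 and 2.56 normalised CPM in EHT hypoxia and 8.17, 7.36 and 3.998 in monolayer hypoxia. In EHT normoxia it had 0.475, 1.27 and 1.38, and in monolayer normoxia 95.7, 113 and 100.5. The 3 normoxic monolayers lay close together for both claudins, unlike for the cadherins.

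DSG3 encodes desmoglein 3, the desmosomal cadherin of basal layers of stratified epithelium and the main autoantigen of pemphigus vulgaris. It had 3.01, 2.05 and 0 normalised CPM in EHT hypoxia and 0.340, 0 and 0.138 in monolayer hypoxia, the monolayers holding 3 reads in all. It had 0 reads in the 3 libraries of EHT normoxia, and 102, 12.2 and 8.14 normalised CPM in monolayer normoxia. Library 1 of monolayer normoxia held most of its reads.

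DSC3 encodes desmocollin 3, a desmosomal cadherin of the same basal layers. It had 1.69, 0.682 and 3.58 normalised CPM in EHT hypoxia and 10.2, 7.11 and 9.79 in monolayer hypoxia. Under normoxia its values were 4.27, 1.73 and 5.98 in EHT and 49.2, 11.97 and 18.5 in monolayer. The order of the group means was normoxic monolayer, hypoxic monolayer, normoxic EHT and hypoxic EHT, with overlap only between the 2 EHT groups.

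PERP is a membrane protein of desmosomes, required for their assembly in mouse skin and a target of p53 and p63. It had 18.2, 27.5 and 49.4 normalised CPM in EHT hypoxia and 67.5, 73.8 and 70.3 in monolayer hypoxia. Normoxic EHT had 29.9, 39.6 and 81.1 of it, and normoxic monolayers 245, 110.1 and 116. Library 3 of EHT normoxia was above the 3 hypoxic monolayers, so those groups overlapped.

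**Figure D1:**
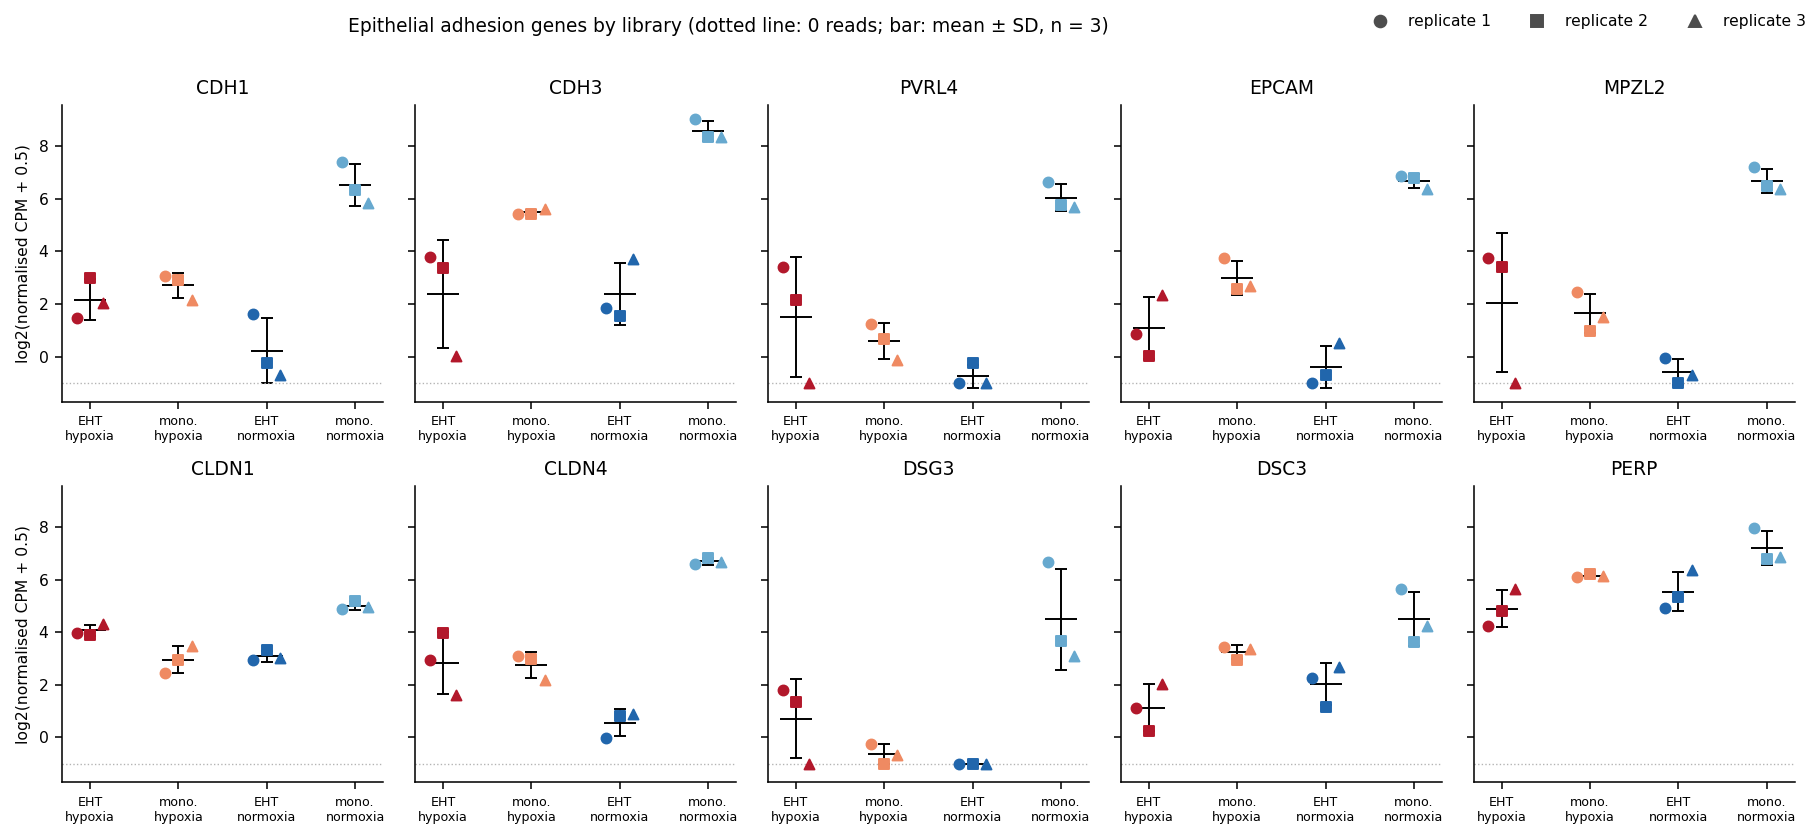
Level of each adhesion gene in every library, as log2(normalised CPM + 0.5), in EHT hypoxia, monolayer hypoxia, EHT normoxia and monolayer normoxia; markers give the library number, bars the mean ± SD of 3 libraries, and the dotted line is the value of 0 reads. For all 10 genes the 3 normoxic monolayers sit at the top, and for PVRL4, MPZL2 and DSG3 library 3 of EHT hypoxia sits on the dotted line.

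Among the 3 normoxic monolayers, library 1 was the highest for 8 of these genes and library 2 for CLDN1 and CLDN4. The gap was widest for DSG3 (102 against 12.2 and 8.14 normalised CPM) and wide for DSC3 (49.2 against 11.97 and 18.5). The epithelial keratin KRT5 ran the same way, with 3334 normalised CPM in library 1 against 563 and 421, and so did TP63, the p63 gene of basal epithelial cells, with 130 against 38.5 and 34.8. The part of epithelial cells in the spread between these libraries was not tested.

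EHT and monolayer in normoxia, the comparison taken to have led to these genes, differed by a log2 factor of -1.66 (PERP, SE 0.41) to -7.26 (MPZL2, SE 0.95), EHT being lower for all 10. In this comparison all 10 genes had no overlap between groups in the lower direction, as had 31.3% of the 11965 genes tested, and nothing is read from that count. The median log2 difference was -6.16, and -6.24 with DSG3 at its bound, against -0.07 over all genes tested. The differences fell into a larger and a smaller set. CDH1 (-6.28, SE 0.60), CDH3 (-6.20, SE 0.79), PVRL4 (-6.79, SE 0.84), EPCAM (-7.07, SE 0.57), MPZL2, CLDN4 (-6.12, SE 0.49) and DSG3 (-5.48, SE 0.86) formed the larger one. CLDN1 (-1.92, SE 0.27), DSC3 (-2.47, SE 0.56) and PERP were in the smaller one and were still read in each normoxic EHT library. DSG3, with no read in EHT normoxia, was at least 319-fold lower there than in monolayer normoxia (floor of 3 reads over the group). For PVRL4 the pooled level in EHT normoxia was 0.00198 of that in monolayer normoxia (95% counting interval 0.000409 to 0.00581), and for MPZL2 it was 0.00129 (0.000265 to 0.00376).

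All 10 genes passed the minimum level for testing, a mean of 1 normalised CPM over the 12 libraries. Without the normoxic monolayers 9 of them would still have passed, and DSG3, with a mean of 0.615 over the other 9 libraries, would not. DSG3 was thus in the fit only through the group where it was high, and its values are given without a test and left out of the counts of genes called.

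Hypoxic monolayers held less of these transcripts than normoxic ones. With limma and Benjamini-Hochberg adjustment over all genes tested, 8 of the 9 genes other than DSG3 were lower in hypoxic than in normoxic monolayers, against 24.5% of all genes tested. The groups did not overlap for any of the 9, all lower in hypoxia, against 33.6% of all genes. The median log2 difference of the 9 was -3.68, beside -0.08 over all genes. This comparison shares the normoxic monolayer libraries with the one taken to have led to these genes, so the 2 comparisons are not independent. Choosing genes that were high in those libraries favours a fall here. The p-values and the shares of all genes do not allow for that choice.

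The adherens junction genes, EPCAM and MPZL2 fell in hypoxic monolayers. PVRL4 averaged 1.13 ± 0.729 normalised CPM in hypoxic and 68.2 ± 26.2 in normoxic monolayers (SD, n = 3 each), a log2 difference of -5.44 (SE 0.84, limma adjusted p = 2.26e-04). CDH1 averaged 6.27 ± 2.01 in hypoxic and 100.9 ± 57.9 normalised CPM in normoxic monolayers (log2 difference -3.80, SE 0.60, limma adjusted p = 2.58e-04). CDH3 fell by less on the log2 scale (-3.09, SE 0.79, limma adjusted p = 0.00644) and at 41.9 to 48.1 normalised CPM stayed above every EHT library. MPZL2 fell by 5.04 (SE 0.95, limma adjusted p = 8.82e-04) and EPCAM by 3.68 on the log2 scale (SE 0.57, limma adjusted p = 2.15e-04). CDH1, CDH3, PVRL4, EPCAM and MPZL2 kept these calls under every alternative run.

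The claudins fell by unequal amounts in hypoxic monolayers. CLDN4 averaged 6.51 ± 2.21 normalised CPM in hypoxic and 103 ± 8.77 in normoxic monolayers (SD, n = 3 each; log2 difference -3.94, SE 0.49, limma adjusted p = 4.70e-05). CLDN1 averaged 7.55 ± 2.87 in hypoxic and 31.9 ± 3.68 normalised CPM in normoxic monolayers (log2 difference -2.06, SE 0.27, limma adjusted p = 5.71e-05).

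Among the desmosomal genes DSG3, given without a test, had a pooled level in hypoxic monolayers that was 0.00318 of that in normoxic monolayers (95% counting interval 0.000656 to 0.00932), from 3 reads. PERP fell by 1.05 (SE 0.41, limma adjusted p = 0.0482). That call was lost without monolayer hypoxia library 1, 2 or 3 (adjusted p = 0.109, 0.0928 and 0.102) and without monolayer normoxia library 1 or 3 (adjusted p = 0.204 and 0.0516), and without library 1 the difference was -0.68. DSC3 was not called, with 9.04 ± 1.68 normalised CPM in hypoxic and 26.6 ± 19.9 in normoxic monolayers (log2 difference -1.27, SE 0.56, limma adjusted p = 0.0793); without monolayer normoxia library 2 it was called (-1.71, adjusted p = 0.0384), and without library 1 the difference was -0.71. DSC3 was also called lower on the deposited scaling (-1.57, adjusted p = 0.00921), with library totals (-1.90, adjusted p = 0.0115), with a pseudocount of 2 (-1.16, adjusted p = 0.0416) and in the fit to the 2 monolayer groups alone (adjusted p = 0.0236).

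Of the 10 epithelial markers, 9 fell in hypoxic monolayers (median log2 difference -4.94), against 24.5% of all genes tested, and none rose, against 24.1%. KRT18, a keratin of simple epithelia, was the exception, with 14.6, 28.7 and 12.5 normalised CPM in hypoxic and 10.4, 10.3 and 10.1 in normoxic monolayers. TP63, GRHL2, ESRP1 and ESRP2, like DSG3, passed the minimum level only through the normoxic monolayers, and nothing is read from their fall. Because they are in the count and the median, neither is read against the shares of all genes. The other markers that fell were KRT5, KRT15, KRT17, ELF3 and RAB25. Of the 7 cardiomyocyte markers 2 rose, against 24.1% of all genes tested, and none fell, against 24.5%. The part of epithelial cells in the fall of the adhesion genes was not tested.

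EHT and monolayer after hypoxia were compared on the 6 libraries outside the comparison taken to have led to these genes, although the estimate of the spread and the minimum level drew on all 12. Here the 9 genes other than DSG3 went in different directions: 4 were lower in EHT, against 22.5% of all genes tested, and 1 was higher, against 18.2%. The median log2 difference of the 9 was -0.55, beside -0.07 over all genes, and 5 of the 9 differences were below 0. CDH3 was lower in EHT, with 7.80 ± 6.54 normalised CPM in hypoxic EHT and 44.3 ± 3.33 in hypoxic monolayers (SD, n = 3 each; log2 difference -3.10, SE 0.79, limma adjusted p = 0.00813). Without library 3 of EHT hypoxia that difference was -1.92 (adjusted p = 0.00732). DSC3 was lower too, with 1.99 ± 1.47 in hypoxic EHT and 9.04 ± 1.68 normalised CPM in hypoxic monolayers (log2 difference -2.10, SE 0.56, limma adjusted p = 0.0105), a call lost with voom weights (adjusted p = 0.144). EPCAM was lower as well (log2 difference -1.92, SE 0.57, limma adjusted p = 0.0168), and was no longer called without EHT hypoxia library 2 (adjusted p = 0.0673) or monolayer hypoxia library 1 (adjusted p = 0.0776). PERP had a log2 difference of -1.26 (SE 0.41, limma adjusted p = 0.0260), and was no longer called on the deposited scaling (adjusted p = 0.0813) or without any 1 of 5 libraries, all but EHT hypoxia library 3 (adjusted p = 0.0590 to 0.102).

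CLDN1 was the gene that was higher in hypoxic EHT than in hypoxic monolayers. It averaged 16.4 ± 2.68 normalised CPM in hypoxic EHT and 7.55 ± 2.87 in hypoxic monolayers (SD, n = 3 each), a log2 difference of 1.12 (SE 0.27, limma adjusted p = 0.00531), with all 3 EHT libraries above all 3 monolayers. The call held without each of the 6 libraries in turn and was lost on the deposited scaling (adjusted p = 0.209).

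CDH1, PVRL4, MPZL2 and CLDN4 did not differ beyond their spread between the hypoxic cultures. Their log2 differences were -0.55 (SE 0.60, adjusted p = 0.495), 0.92 (SE 0.84, adjusted p = 0.407), 0.41 (SE 0.95, adjusted p = 0.757) and 0.08 (SE 0.49, adjusted p = 0.910), by limma. For DSG3, given without a test, the pooled level in hypoxic EHT was 13.2 times that in hypoxic monolayers (95% counting interval 4.07 to 67.7). Without library 3 of EHT hypoxia PVRL4 (2.18, adjusted p = 0.00457) and MPZL2 (1.93, adjusted p = 0.00413) were called higher in EHT, which with CLDN1 made 3.

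**Figure D2:**
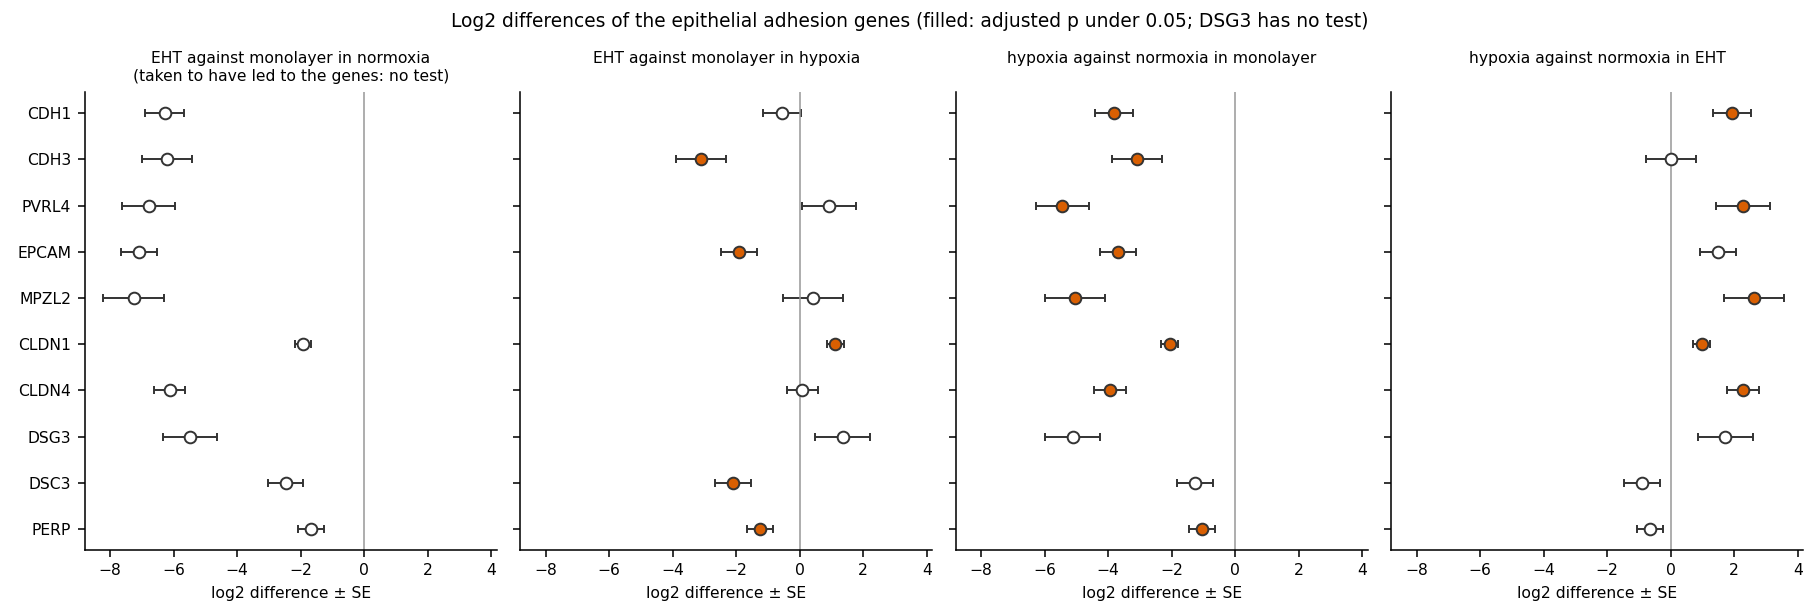
Log2 difference of each adhesion gene ± SE in the 4 comparisons, EHT against monolayer in normoxia and in hypoxia and hypoxia against normoxia in monolayer and in EHT, from limma on 12 libraries; filled points have an adjusted p under 0.05, the first panel has no test because it is taken to have led to these genes, and DSG3 has none in any panel. All 10 points are below 0 for EHT in normoxia and for hypoxia in monolayer, 5 are below 0 for EHT in hypoxia, and 8 are above 0 for hypoxia in EHT.

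Hypoxia in EHT went with higher, not lower, levels of part of the genes. Of the 9 genes other than DSG3, 5 rose in hypoxic EHT, against 19.6% of all genes tested, and none fell, against 18.6%. At an unadjusted limma p under 0.05 there were 6 of the 9 genes, all higher, against 5642 of the 11965 genes tested, in either direction. Groups without overlap, higher in hypoxia, were found for 2 genes, against 22.7% of all genes. The median log2 difference of the 9 was 1.47, beside 0.01 over all genes. This comparison shares the normoxic EHT libraries with the one taken to have led to these genes. Choosing genes that were low in those libraries favours a rise here. The p-values and the shares of all genes do not allow for that choice.

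The 2 genes without overlap were the claudins. CLDN4 averaged 8.24 ± 6.30 normalised CPM in hypoxic EHT and 1.04 ± 0.494 in normoxic EHT (SD, n = 3 each; log2 difference 2.27, SE 0.49, limma adjusted p = 0.00330). CLDN1 averaged 16.4 ± 2.68 in hypoxic and 8.05 ± 1.23 normalised CPM in normoxic EHT (log2 difference 0.98, SE 0.27, limma adjusted p = 0.0116). Both kept the call without each of the 6 libraries in turn. On the deposited scaling CLDN1 lost it (adjusted p = 0.182).

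CDH1, MPZL2 and PVRL4 also rose in hypoxic EHT, with overlapping groups. CDH1 averaged 4.45 ± 2.73 normalised CPM in hypoxic and 1.02 ± 1.38 in normoxic EHT (log2 difference 1.93, SE 0.60, limma adjusted p = 0.0230). MPZL2 rose by 2.63 (SE 0.95, limma adjusted p = 0.0438) and PVRL4 by 2.27 on the log2 scale (SE 0.84, limma adjusted p = 0.0497), both with 3 reads in the normoxic group. Their pooled levels in hypoxic EHT were 61.0 times (95% counting interval 20.4 to 299.9) and 36.7 times (12.1 to 182) those in normoxic EHT. In a fit to the 2 EHT groups alone these 3 genes were not called (adjusted p = 0.0935, 0.167 and 0.168). CDH1 also lost its call without EHT hypoxia library 2 or EHT normoxia library 2 or 3 (adjusted p = 0.0975, 0.0799 and 0.0858). MPZL2 and PVRL4 lost theirs without any library of these groups but EHT hypoxia library 3 (adjusted p = 0.0635 to 0.211), and without that library they were 4.16 and 3.53.

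EPCAM (log2 difference 1.47, SE 0.57, limma adjusted p = 0.0557) was not called in hypoxic EHT. For DSG3, given without a test and with no read in normoxic EHT, the pooled level was at least 13.4-fold higher in hypoxic EHT (floor of 3 reads over the group), its reads coming from libraries 1 and 2. CDH3 (0.01, SE 0.79, adjusted p = 0.999), DSC3 (-0.90, SE 0.56, adjusted p = 0.230) and PERP (-0.64, SE 0.41, adjusted p = 0.234) showed no detectable difference. Whether EHT libraries that share a replicate number are pairs is not known. With the number as a block within each culture, EPCAM was called higher (limma adjusted p = 0.0107) and PERP lower (adjusted p = 0.0496). PERP was also called lower without EHT hypoxia library 3 (-1.02, adjusted p = 0.0473), and EPCAM higher without EHT hypoxia library 2 (2.01, adjusted p = 0.0181) or EHT normoxia library 3 (1.93, adjusted p = 0.0227).

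Within hypoxic EHT the 10 genes did not vary together. Library 3 was lowest for CDH3, PVRL4, MPZL2, CLDN4 and DSG3, and highest for EPCAM, CLDN1, DSC3 and PERP; for CDH1 it lay between the others. Epithelial markers followed the first set: KRT5 had 48.5, 58.2 and 0.512 normalised CPM in libraries 1 to 3 of EHT hypoxia, KRT17 85.9, 96.6 and 3.58, and KRT15 6.58, 9.73 and 0. The epithelial transcription factor GRHL2 and the splicing factor ESRP1 were read in libraries 1 and 2 and had 0 reads in library 3. Of the 10 epithelial markers 5 rose in hypoxic EHT, against 19.6% of all genes tested, and 1 fell, against 18.6%. TP63, GRHL2, ESRP1 and ESRP2 were in that fit only through the normoxic monolayers, so these counts are not read against the shares of all genes. Cardiomyocyte markers were also low in library 3. The part of other cells in these differences was not tested.

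**Figure D3:**
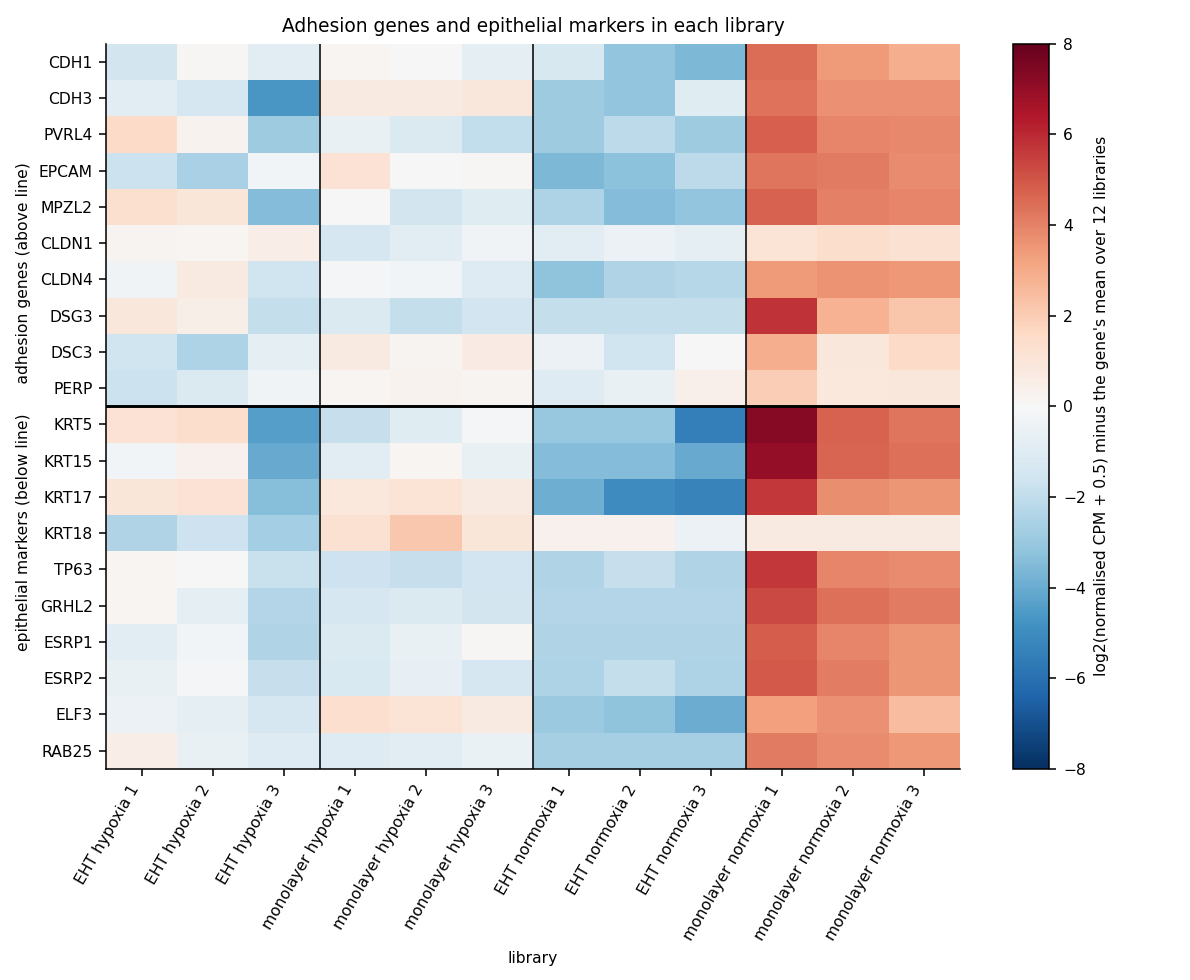
Deviation of log2(normalised CPM + 0.5) from the gene's mean over 12 libraries, with the 10 adhesion genes above the line and the 10 epithelial markers below it, in EHT hypoxia, monolayer hypoxia, EHT normoxia and monolayer normoxia. The normoxic monolayers are the reddest block for both sets, and in library 3 of EHT hypoxia CDH3, PVRL4, MPZL2, KRT5, KRT15 and KRT17 are blue while EPCAM, CLDN1, DSC3 and PERP are near 0.

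The other genes of these junctions were taken from a list of 86 symbols, of which 76 were in the table and 61 were tested. The 61 include genes, such as CLDN6, CLDN8 and DSG1, that passed the minimum level only through the normoxic monolayers. For EHT against monolayer in normoxia 37 of the 61 were lower, against 25.1% of all genes tested, and 7 were higher, against 19.3%, with a median log2 difference of -1.22. After hypoxia 20 were lower in EHT, against 22.5% of all genes, and 4 were higher, against 18.2% (median -0.44); on the deposited scaling these were 12 and 3. In hypoxic against normoxic monolayers 26 fell, against 24.5% of all genes, and 10 rose, against 24.1% (median -0.56). In hypoxic against normoxic EHT 4 fell, against 18.6% of all genes, and 10 rose, against 19.6% (median 0.27). With library totals as the scaling the EHT counts were 8 and 8, and those in monolayers 36 and 3; on the deposited scaling none of the 61 was higher in EHT in normoxia.

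The desmosome and cornified envelope genes were called in a single direction within each comparison. Of 10 tested, 9 were lower in EHT in normoxia, against 25.1% of all genes tested, and 3 in EHT after hypoxia, against 22.5%. In hypoxic monolayers 8 fell, against 24.5% of all genes, and in hypoxic EHT 4 rose, against 19.6%. The 9 and the 8 include DSG1, which like DSG3 was in the fit only through the normoxic monolayers, and nothing is read from its calls. Among the named ones, EVPL, the envoplakin of the cornified envelope, was lower in EHT in normoxia (log2 difference -6.22, SE 0.77, limma adjusted p = 4.83e-05) and fell in hypoxic monolayers (-4.25, SE 0.77, adjusted p = 6.69e-04). PKP3, a plakophilin of epithelial desmosomes, rose in hypoxic EHT, with 11.3, 8.87 and 2.56 normalised CPM in hypoxic and 0, 0 and 0.691 in normoxic EHT (log2 difference 3.38, SE 0.52, adjusted p = 3.41e-04). DSP, desmoplakin, was lower in EHT after hypoxia (-2.16, SE 0.36, adjusted p = 6.10e-04). DSG3 and DSC3 belong to a gene cluster whose order in the macaque RefSeq annotation is DSG2, DSG3, DSG4, DSG1, DSC1, DSC2, DSC3, CDH2. Of these, DSG2, the desmoglein shared by epithelium and heart, had 34.4, 26.4 and 31.2 normalised CPM in EHT hypoxia, 89.5, 104 and 112 in monolayer hypoxia, 12.8, 12.8 and 23.7 in EHT normoxia and 192, 134 and 130 in monolayer normoxia. DSC2 had 4.70, 9.04 and 12.03 in EHT hypoxia, 14.8, 18.5 and 21.5 in monolayer hypoxia, 0.237, 1.96 and 3.45 in EHT normoxia and 201, 64.5 and 60.001 normalised CPM in monolayer normoxia. Both were highest in normoxic monolayers and lowest in normoxic EHT, without overlap between any of the 4 groups.

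Tight junction genes had calls in both directions in 3 of the comparisons. Of 23 tested, 14 were lower in EHT in normoxia, against 25.1% of all genes tested, and none higher, against 19.3%. After hypoxia 7 were lower in EHT, against 22.5% of all genes, and 1 higher, against 18.2%. In hypoxic monolayers 11 fell, against 24.5% of all genes, and 2 rose, against 24.1%. In hypoxic EHT 1 fell, against 18.6% of all genes, and 2 rose, against 19.6%. CLDN6, a claudin of early embryonic epithelium, had 158, 87.2 and 51.2 normalised CPM in normoxic monolayers and at most 1.52 in the 9 other libraries. Its log2 difference was -7.49 for EHT in normoxia (SE 0.43) and -5.60 for hypoxia in monolayer (SE 0.43). Like DSG3, CLDN6 passed the minimum level only through the normoxic monolayers, so it is given without a test. CLDN7 was lower in EHT in normoxia (-6.22, SE 0.52, limma adjusted p = 2.72e-06), fell in hypoxic monolayers (-3.97, SE 0.52, adjusted p = 6.73e-05) and rose in hypoxic EHT (2.35, SE 0.52, adjusted p = 0.00377). CGN, the tight junction scaffold cingulin, rose in hypoxic EHT as well (2.42, SE 0.51, adjusted p = 0.00272). CLDN11 was lower in EHT after hypoxia (-3.18, SE 0.95, adjusted p = 0.0183) and CLDN15 higher (2.77, SE 0.38, adjusted p = 1.70e-04). CLDN8 was lower in hypoxic than in normoxic monolayers (-5.36, SE 0.36), and is given without a test for the same reason as CLDN6. Both are in the counts of tight junction genes above.

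Of 14 adherens junction genes tested besides CDH1, CDH3 and PVRL4, 8 were lower in EHT in normoxia, against 25.1% of all genes tested, and 3 higher, against 19.3%. After hypoxia 10 were lower in EHT, against 22.5% of all genes, and none higher, against 18.2% (4 lower on the deposited scaling). In hypoxic monolayers 4 fell, against 24.5% of all genes, and 5 rose, against 24.1%. With library totals these were 6 and 2, and on the deposited scaling 2 and 2. In hypoxic EHT 3 fell, against 18.6% of all genes, and none rose, against 19.6%. The number fallen was 6 with library totals and 1 on the deposited scaling. Nothing is read from the counts in hypoxic monolayers and in hypoxic EHT. CDH2, the N-cadherin of heart muscle and mesenchyme, had 108, 123 and 85.5 normalised CPM in EHT hypoxia, 522, 577 and 592 in monolayer hypoxia, 349, 421 and 281 in EHT normoxia and 226, 217 and 80.9 in monolayer normoxia. It thus rose where CDH1 and CDH3 fell, in hypoxic monolayers (1.83, SE 0.31, limma adjusted p = 4.86e-04), and fell in hypoxic EHT (-1.72, SE 0.31, adjusted p = 0.00109); it was lower in EHT after hypoxia (-2.42, SE 0.31, adjusted p = 1.18e-04). JUP, the plakoglobin shared by adherens junctions and desmosomes, was lower in EHT after hypoxia (-2.20, SE 0.56, adjusted p = 0.00756). CDH13, a cadherin anchored by lipid, was higher in EHT in normoxia (1.26, SE 0.37, adjusted p = 0.0144) and rose in hypoxic monolayers (2.89, SE 0.37, adjusted p = 5.26e-05). CDH6 was higher in EHT in normoxia (1.19, SE 0.21, adjusted p = 6.84e-04) and fell in hypoxic EHT (-1.47, SE 0.21, adjusted p = 1.99e-04), where CTNNB1, beta-catenin, fell too (-0.71, SE 0.16, adjusted p = 0.00387). On the deposited scaling CDH13 and CDH6 in normoxic EHT (adjusted p = 0.359 and 0.448) and CDH6 and CTNNB1 in hypoxic EHT (adjusted p = 0.0991 and 0.605) were not called.

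Paralogs and partners of EPCAM and MPZL2 divided in direction. Of 9 tested, 5 were lower in EHT in normoxia, against 25.1% of all genes tested, and 3 higher, against 19.3%. After hypoxia none was lower in EHT, against 22.5% of all genes, and 3 were higher, against 18.2%. In hypoxic monolayers 3 fell, against 24.5% of all genes, and 1 rose, against 24.1%. In hypoxic EHT none fell, against 18.6% of all genes, and 3 rose, against 19.6%. MPZL1, a paralog of MPZL2, was higher in EHT in normoxia (1.47, SE 0.17, adjusted p = 3.01e-05) and after hypoxia (1.14, SE 0.17, adjusted p = 2.97e-04). CD44, the hyaluronan receptor, was higher in EHT in normoxia (1.84, SE 0.25, adjusted p = 1.08e-04) and after hypoxia (2.70, SE 0.25, adjusted p = 1.29e-05), and the tetraspanin CD9 was higher in EHT after hypoxia (1.57, SE 0.30, adjusted p = 0.00136). On the deposited scaling MPZL1 was not called in either (adjusted p = 0.216 and 0.113), nor CD44 in normoxia (adjusted p = 0.0531). TMEM47, of the same protein family as PERP, rose in hypoxic monolayers (1.76, SE 0.21, adjusted p = 3.37e-05). Of 5 repressors of CDH1 transcription, 1 was lower and 1 higher in EHT in normoxia, the higher one not on either other scaling, and none was called in EHT after hypoxia. In hypoxic monolayers 2 of these rose, whereas none rose on the deposited scaling and 2 fell with library totals; ZEB1 was among the 2 that rose (1.20, SE 0.27, adjusted p = 0.00289; adjusted p = 0.278 and 0.116 on those scalings). In hypoxic EHT 1 rose, and none did on either of those scalings. Nothing is read from the counts among these 5 repressors.

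**Figure D4:**
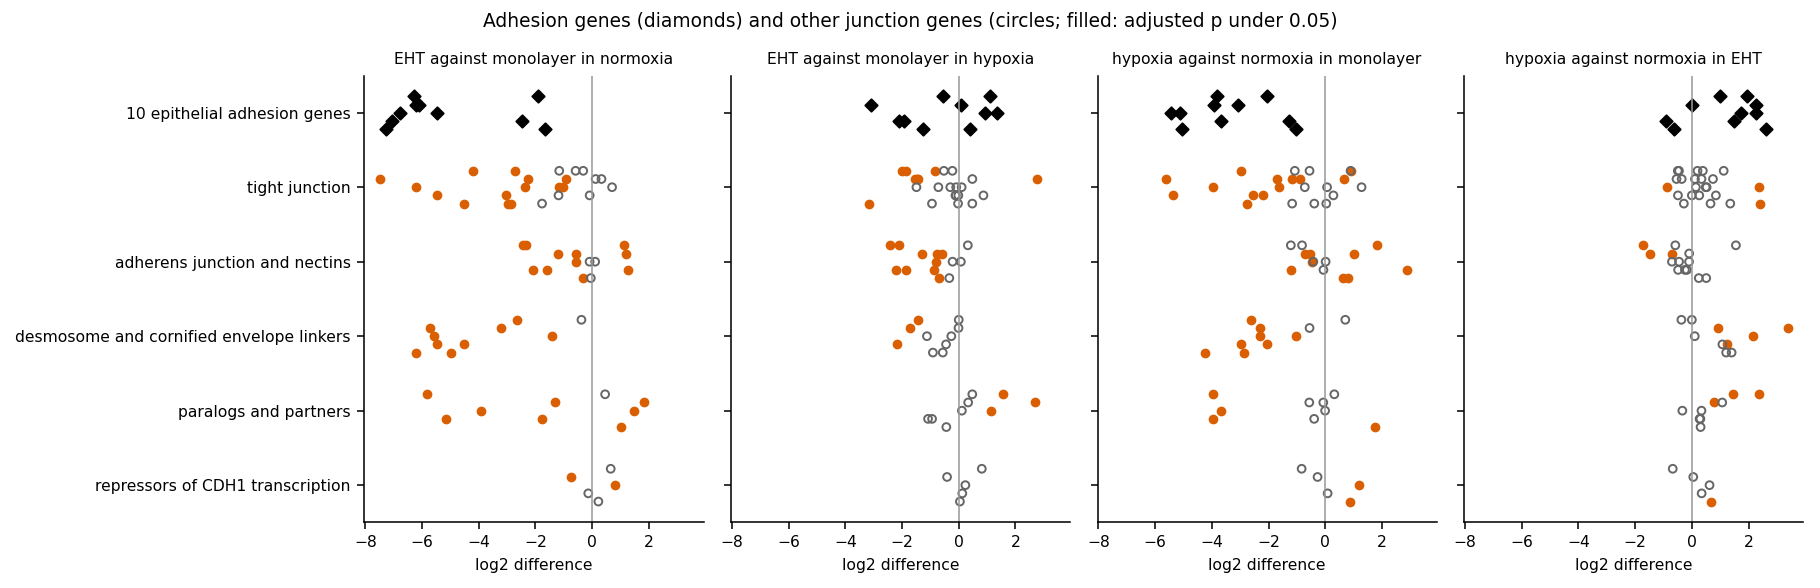
Log2 difference of the 10 adhesion genes (diamonds) and of the 61 other junction genes by list (circles) in the 4 comparisons. Filled circles have an adjusted p under 0.05 by limma, CLDN6, CLDN8 and DSG1 being drawn by the same rule. The diamonds are solid in every panel and do not show which adhesion genes were called. The desmosome genes lie mostly below 0 for EHT in normoxia (9 of 10 called lower, against 25.1% of all genes). They also do for hypoxia in monolayer (8 of 10, against 24.5%), DSG1 being among those called in both. Those called for hypoxia in EHT (4 of 10, against 19.6%) lie above 0.

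Over the 12 libraries each of the 10 genes was set against their mean profile, after centring each gene. As a description with no test, Pearson's r was 0.966 for CLDN4, 0.952 for MPZL2, 0.947 for CDH1 and PVRL4, 0.926 for EPCAM, 0.919 for CDH3, 0.918 for DSG3, 0.743 for DSC3, 0.743 for CLDN1 and 0.727 for PERP. Each gene is part of the mean it was set against, and the 3 normoxic monolayers stood above the other 9 libraries for all 10 genes. Among the other genes tested, the 8 with the highest r were PPL (0.993), MUC16 (0.988), ESRP1 (0.984), SLC6A4 (0.983), SOWAHB (0.982), KRT15 (0.979), GABRP (0.979) and ESRP2 (0.977). Of these, ESRP1, SLC6A4, SOWAHB and ESRP2 passed the minimum level only through the normoxic monolayers, and nothing is read from their r. PPL, the desmosome linker periplakin, averaged 17.3 ± 9.38 normalised CPM in EHT hypoxia, 21.8 ± 5.71 in monolayer hypoxia, 7.16 ± 1.41 in EHT normoxia and 188 ± 96.4 in monolayer normoxia (SD, n = 3 each). MUC16, the cell-surface mucin also known as CA125, averaged 1.02 ± 0.951 normalised CPM in EHT hypoxia, 2.35 ± 0.429 in monolayer hypoxia and 59.0 ± 10.2 in monolayer normoxia, and had 0 reads in EHT normoxia.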

How the data were processed

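The authors aligned reads with HISAT2, counted them per gene with featureCounts and transformed them with DESeq2, per the submitters' processing notes; for versions, genome build, annotation and strand setting, nothing is given in the sources used here. RNA was extracted with RNeasy kits and sequenced on the Ion Proton, per the labels' protocols. The deposited table holds the authors' variance-stabilised log2 values, 1 column for each of the 12 libraries. Genes are named by symbol, with no positions; PVRL4 was matched to RefSeq as NECTIN4. Reads of close paralogs, and of genes antisense to one another, may be shared between them.

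Inverting the transformation gave whole reads (tolerance 0.01) for 100% of values. The scaling factors in the deposited values were 0.412 to 1.42 times median-of-ratios factors, so reads were rescaled by the latter kind and expressed per 1000000 reads of the geometric mean total. Genes with a mean of at least 1 normalised CPM (11965) were fitted with limma 3.58.1 in R 4.3.3 on log2(normalised CPM + 0.5), with a mean-variance trend and 1 mean per group over all 12 libraries. This scale tends to understate the change of genes with few reads; where a group has libraries with 0 reads, the pseudocount can move a difference either way. P-values were Benjamini-Hochberg adjusted over all genes tested within a comparison, with a threshold of 0.05. The interaction was not tested, because it contains the comparison taken to have led to these genes. Counting intervals are exact (Clopper-Pearson, 95%) and cover counting error alone, since reads are not independent molecules. The fit was tested on simulated data. Figures were drawn with matplotlib 3.10.9.

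The genes, the marker and junction lists and the tests were chosen with earlier results of these data known. All 10 adhesion genes are named, with up to 4 other junction genes per direction and comparison, those with the largest difference among the genes called, and the 8 genes most like the mean profile. A few genes that this rule names are not reported here. Values of KRT5, KRT15, KRT17, KRT18, TP63, GRHL2, DSG2 and DSC2 are given in addition, chosen after their values were seen. Alternatives were the deposited scaling, scaling by library totals, pseudocounts of 0.1 and 2, no filter and a minimum of 5, voom weights, the compared groups alone, a replicate block, and leaving out each library. Replicate numbers come from the labels. After subtracting group means, EHT hypoxia and normoxia libraries of the same number correlated at 0.120, 0.250 and 0.315, and monolayer ones at -0.0693, 0.0449 and 0.0201. EHT and monolayer libraries of the same number correlated at -0.0675, 0.184 and 0.155 in normoxia and at -0.0198, 0.0440 and 0.0628 in hypoxia. Libraries of different numbers were not correlated, so whether the numbers mark pairs is not known. A block within each culture was added after seeing the data.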

Additional observations from a re-analysis of the deposited data

Results flagged for a closer look

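CLDN1 and CLDN4 moved in opposite directions with hypoxia in the 2 cultures, with every library on its side. For CLDN1 the log2 difference, hypoxia minus normoxia, was 0.98 in EHT and -2.06 in monolayer, a gap of 3.04. For CLDN4 it was 2.27 in EHT and -3.94 in monolayer, a gap of 6.21. CLDN1 likewise differed in opposite directions between EHT and monolayer, by 1.12 after hypoxia and by -1.92 in normoxia, the same gap of 3.04. These gaps between differences were not tested, because each contains the comparison taken to have led to these genes. Choosing genes by that comparison favours a rise with hypoxia in EHT and a fall in monolayer. Of all genes tested, 22.7% were higher in hypoxic EHT without overlap of the groups. In hypoxic monolayers 33.6% were lower without overlap. The share of all genes with such opposite changes was not computed, so nothing is read from the number of genes flagged.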

How the results depend on the processing

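On the deposited scaling fewer genes were called: 3435 for EHT against monolayer in normoxia (5311 on the scaling used here), 1555 for EHT against monolayer in hypoxia (4874), 2988 for hypoxia in monolayer (5823) and 1127 for hypoxia in EHT (4570). Of all calls, the percent that were lower was, in that order of comparisons, 90.5, 61.0, 81.9 and 24.0 on the deposited scaling, 76.8, 43.9, 84.3 and 65.1 with library totals, and 56.5, 55.3, 50.4 and 48.7 on the scaling used here. The number of adhesion genes called higher in hypoxic EHT was 3 on the deposited scaling, with a pseudocount of 2 and with no filter, and 2 with voom weights and in the fit to the 2 groups alone, against 5 as reported. On the deposited scaling 0 adhesion genes were called higher in EHT after hypoxia. With a replicate block over the 4 groups, 5236, 4796, 5808 and 4488 genes were called, and among the adhesion genes the block changed 1 call, adding DSC3 in hypoxic monolayers (adjusted p = 0.0257). With the block within each culture, 6 adhesion genes were called higher and 1 lower in hypoxic EHT, and DSC3 was called in hypoxic monolayers (adjusted p = 0.0148). With DSG3 counted, leaving out each library in turn gave 2 to 4 adhesion genes lower and 1 to 4 higher in EHT after hypoxia, 8 to 10 lower in hypoxic monolayers, and 2 to 6 higher and 0 to 1 lower in hypoxic EHT. Genes that were not called changed sign. For hypoxia in EHT, CDH3 was -0.17 with library totals, -0.12 with a pseudocount of 0.1, and -0.69 to 1.19 without single libraries. For EHT against monolayer in hypoxia, MPZL2 was -0.18 with a pseudocount of 0.1; without single libraries it was -0.43 to 1.93, PVRL4 was -0.026 to 2.18 and CLDN4 was -0.48 to 0.69. The cause of these changes was not tested. At this depth 1 read is worth up to 0.256 normalised CPM, which limits PVRL4, MPZL2, EPCAM and DSG3 in EHT.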
